A study of Mus musculus with 8 samples.

Results

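Wwtr1, which encodes the transcriptional coactivator TAZ, was examined together with the core of the Hippo pathway in common myeloid progenitors (CMPs) of young and old mice. The members were the coactivators Wwtr1 and Yap1, their DNA-binding partners Tead1 to Tead4 and the kinases Lats1, Lats2, Stk3 and Stk4. Every probe on the array that carries one of these names was taken, which gave 16 probes for the 10 genes, out of 55681 probes and 34797 gene names. Wwtr1 was selected on its own difference between the ages on these same arrays, so its values are described here without a test. The other 9 genes were selected as its pathway and not for their values, although earlier results of these data were known by then.

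CMPs were sorted from the bone marrow of untreated wildtype C57BL/6J mice (gated Lin-, cKit+, Sca-1-, CD34+ and low for FcγR), and their RNA was measured on Agilent arrays with 1 dye. There were 4 arrays of young mice, aged 2 to 3 months by the sample labels, and 4 of old mice, aged 22 to 24 months. The series description gives slightly different age ranges, and the paper names 3 mice per age without tying them to arrays, so none of the 8 was left out. The study's supplement describes CMPs of single mice as analysed separately, but the labels tie no array to a mouse, so the spread given here is that between arrays.

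The Hippo pathway is a kinase cascade that holds back growth. STK3 and STK4 (also called MST2 and MST1) activate LATS1 and LATS2, which phosphorylate YAP and TAZ, and the phosphorylated coactivators are kept in the cytoplasm by 14-3-3 proteins or degraded. Unphosphorylated YAP and TAZ enter the nucleus, where they cannot bind DNA themselves and act through TEAD factors. In blood cells the pathway is best known for STK4, whose loss impairs T cells. Because much of this control acts on the proteins, transcript levels do not report the activity of the pathway.

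The sequence on which each statement rests is that of the probe. The lines that follow give the last 30 bases of the deposited probe sequence, 5′ to 3′, for the coactivators, for the Tead genes that differed most between the ages and for both Stk4 probes that disagreed. Capitals mark AATAAA, the polyadenylation signal, which lies within the stretch shown of both the Tead2 probe at base 2055 and the Tead4 probe.
Wwtr1, base 4257: ctcagtgcataagaagtgcataagtctcag
Yap1, base 4085: ttaactggttattcttgaatttcttttaca
Tead2, base 1867: ccagcttggggtagggtgaagtgggacctg
Tead2, base 2055: tgtttgaaggagAATAAAgctatttttacc
Tead4, base 3016: ccacatgttcAATAAAtatgcattggtact
Stk4, base 429: ttatgagaaaaatacaccgagatatcaagg
Stk4, base 4798: aatccgtgttctttgtgtctcttccaccag
The base is the position of the probe in its transcript as the array design gives it, and it is used below to tell the probes of a gene apart. On the mouse build mm9, the Wwtr1 probe lies at chr3:57259999-57260058 on the minus strand and the Yap1 probe at chr9:7932025-7932084 on the minus strand. The Tead2 probes lie at chr7:52488742-52488801 and chr7:52488930-52488989, the Tead4 probe at chr6:128177161-128177220, and the Stk4 probes at chr2:163914611-163914670 and chr2:163980867-163980926. The array design does not say whether a probe lies in coding sequence or in a UTR.

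All values below are log2 of the signal relative to the 75th percentile of the array, on which 0 is the level of that percentile. They compare the same probe between arrays and are not compared between probes, which differ in brightness for reasons other than transcript number. A probe was tested where it was well above background, by the scanner software's own mark, on at least 4 of the 8 arrays. It was called where the p from limma, adjusted by Benjamini-Hochberg over all tested probes, was under 0.05 and the change was at least 1.5-fold. Of the 16 probes, 12 were tested, covering 8 genes, and 11 of these were well above background on all 8 arrays. Tead3 and Tead4 had no tested probe. Between 55.6% and 63.2% of all probes were well above background on an array, and arrays correlated at 0.967 to 0.992 with each other. Each of the 2 slides held 2 young and 2 old arrays.

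Wwtr1 was not well above background on any young array and was well above background on all 4 old arrays. Its level was -7.18, -6.90, -6.47 and -7.08 on young arrays 3 to 6, and -3.16, -3.34, -3.05 and -2.70 on old arrays 2 to 5. In scanner units these were intensities of 2.86 to 4.73 in young and 35.0 to 65.1 in old CMPs. The groups lay far apart, and each was narrow. The means were -6.91 ± 0.32 (SD, n = 4) and -3.06 ± 0.27 (SD, n = 4), a difference of 3.85 on the log2 scale, which was 3.94 on slide 1 and 3.75 on slide 2. Since the young level lies in the background, this difference depends on how background is handled. A lower bound was therefore computed, with every young value raised to the dimmest signal that the scanner software marked as well above background on its array. By this bound the old CMPs held at least 3.68-fold more Wwtr1 signal. With another background correction (normexp with an offset of 50), the bound was 1.73-fold and the difference 0.98. In bulk samples such as these, more cells with the transcript and more transcript per cell cannot be told apart. Of all 55681 probes, 20, or 0.0359%, showed this pattern of all old arrays and no young array well above background.

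Yap1, the paralogue of Wwtr1, was well above background on every array, and its levels overlapped between the ages. Its level was -2.82, -3.09, -3.84 and -3.34 on the young and -3.49, -3.03, -3.11 and -3.55 on the old arrays. All old values fell within the young range. The difference was -0.02 (SE 0.25, adjusted p = 0.998), and its 95% interval ran from -0.57 to 0.53. The difference was -0.34 on slide 1 and 0.30 on slide 2.

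**Figure D1:**
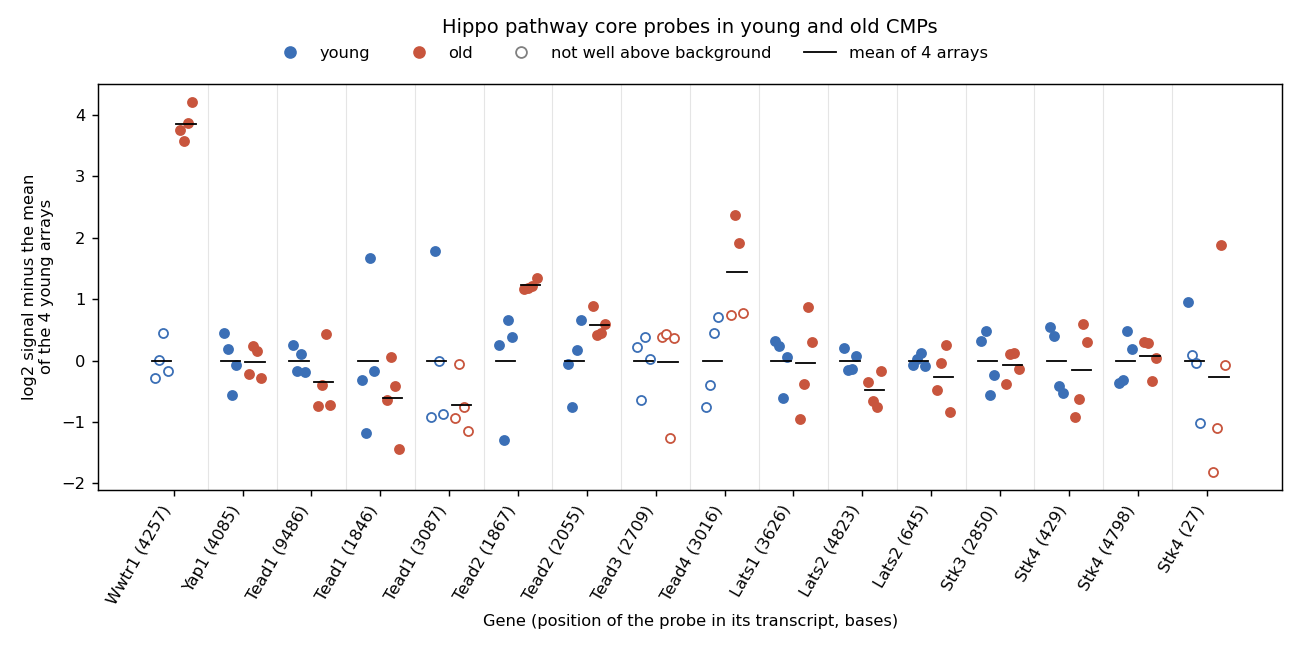
Each point is 1 array, with the log2 signal of a probe minus the mean of its own 4 young arrays on the vertical axis, so that levels of different probes cannot be read from it, and the gene with its probe position on the horizontal axis. Blue is young and red is old, hollow points were not well above background, and black lines are means of 4 arrays. The 4 old Wwtr1 points lie on average 3.85 above the young mean, while the points of Yap1, Lats1, Stk3 and Stk4 overlap between the ages.

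Outside Wwtr1, none of the 11 tested probes was called by limma, and 2 of the 11, one of Tead2 and one of Lats2, had an unadjusted p under 0.05. Across the whole array 0.191% of tested probes were called and 6.34% had an unadjusted p under 0.05. The old and young arrays of the same 2 probes did not overlap. All old arrays lay above the young ones for the Tead2 probe, as for 2.87% of all tested probes, and below them for the Lats2 probe, as for 1.57%. The unpaired test that the study's methods name, run probe by probe with and without adjustment, called none of the 11 at 1.5-fold either.

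Among the TEAD factors, which give YAP and TAZ their DNA binding, Tead2 had the largest difference that could be tested. At base 1867 its level was -2.64, -4.18, -2.23 and -2.51 on the young arrays and -1.72, -1.70, -1.67 and -1.55 on the old arrays. Every old array lay above every young one, and young array 4 lay well below the other young arrays. The difference was 1.23 (SE 0.38, 95% interval 0.39 to 2.07), or 2.34-fold, and it was not called, with an adjusted p of 0.394. With normexp it was 0.69. It was 1.71 on slide 1, which holds young array 4, and 0.74 on slide 2, and without that array it was 0.80 (adjusted p = 0.313).

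The other Tead2 probe, at base 2055 of the same transcript, gave a smaller difference in the same direction. Its level was -1.04, -1.74, -0.80 and -0.32 on the young and -0.09, -0.56, -0.53 and -0.38 on the old arrays. Young array 4 was again the lowest, and young array 6 lay above all old arrays but the highest. The difference was 0.58 (SE 0.29, 95% interval -0.06 to 1.22, adjusted p = 0.876), and it was 1.08 on slide 1 and 0.09 on slide 2.

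Tead4 was well above background on no young and on 2 old arrays, numbers 3 and 4. Its level was -7.12, -6.75, -5.92 and -5.65 on the young and -5.63, -3.99, -4.45 and -5.59 on the old arrays. The groups did not overlap, but the highest young and the lowest old array were nearly level. The probe was too dim to be tested, and the lower bound of the fold was 1.02.

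Tead1 had 3 probes. At base 9486 the young arrays ran from -3.43 to -2.98 and the old ones from -3.98 to -2.80, with a difference of -0.36 (SE 0.28, adjusted p = 0.998), which was -0.03 with normexp. At base 1846 young array 5 stood at -0.19, above the other young arrays, which ran from -3.03 to -2.03, and the old arrays ran from -3.30 to -1.80. That difference was -0.61 (SE 0.55, adjusted p = 0.998), and it was -0.06 without young array 5. The Tead1 probe at base 3087 was well above background on young array 4 alone. The Tead3 probe was well above background on no array, with levels from -6.14 to -5.13 in young and from -6.77 to -5.07 in old CMPs. Tead3 transcript was therefore not detectable with this probe in either age.

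**Figure D2:**
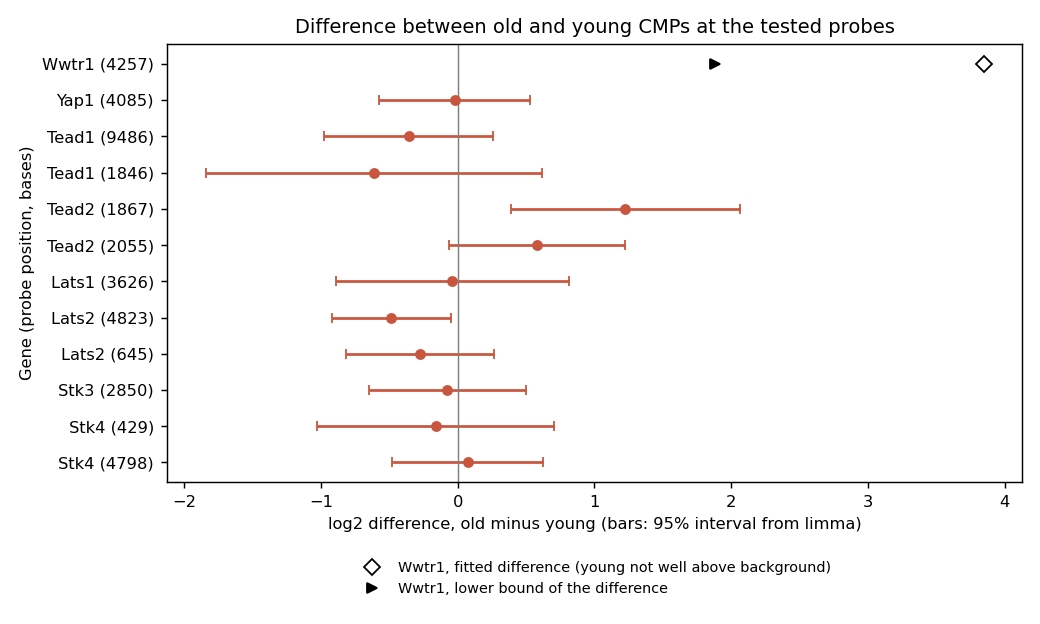
The horizontal axis gives the log2 difference, old minus young, for each of the 12 tested probes, named by gene and probe position on the vertical axis. Circles are estimates from limma with their 95% intervals. Wwtr1 is drawn without an interval, as the fitted difference of 3.85 (diamond) and its lower bound of 1.88 (triangle). The intervals of the Tead2 probe at base 1867 and of the Lats2 probe at base 4823 leave out 0 before adjustment, and the other 9 intervals span it.

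The LATS kinases phosphorylate YAP and TAZ directly. Lats2, which is itself a transcriptional target of YAP and TAZ, was somewhat lower in old CMPs. At base 4823 its level was 0.68, 0.32, 0.34 and 0.55 on the young and 0.12, -0.19, -0.28 and 0.31 on the old arrays. All old arrays lay below all young ones, although old array 5 and young array 4 were nearly level. The difference was -0.49 (SE 0.19, 95% interval -0.92 to -0.05), or 1.40-fold lower, under the 1.5-fold required, with an adjusted p of 0.68. It was -0.58 on slide 1 and -0.39 on slide 2. The probe at base 645, which the array design assigns to another Lats2 transcript, ran from -3.22 to -3.01 in young and from -3.97 to -2.88 in old CMPs, with a difference of -0.28 (SE 0.24, adjusted p = 0.998), which was -0.04 with normexp.

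Lats1 ran from -1.59 to -0.67 in young and from -1.93 to -0.11 in old CMPs. The old arrays were the more scattered, with an SD of 0.79 against 0.42 (n = 4 each). The difference was -0.04 (SE 0.38, adjusted p = 0.998), with a 95% interval from -0.89 to 0.82.

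The upstream kinases overlapped between the ages at every probe. Stk3 ran from -0.63 to 0.42 in young and from -0.44 to 0.05 in old CMPs, a difference of -0.07 (SE 0.26, adjusted p = 0.998). Its difference was -0.53 on slide 1 and 0.38 on slide 2. For Stk4, the probe at base 4798 differed by 0.07 (SE 0.25, adjusted p = 0.998) and the probe at base 429 by -0.16 (SE 0.39, adjusted p = 0.998). The remaining Stk4 probe, at base 27 of another transcript, was well above background on 1 young and 1 old array.

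Both tested Stk4 probes varied between arrays in opposite ways. The early probe, at base 429, was at 0.93, 0.78, -0.03 and -0.14 on the young and -0.54, -0.24, 0.98 and 0.69 on the old arrays. The late probe, at base 4798, was at 2.55, 2.61, 3.41 and 3.11 on the young and 3.23, 3.20, 2.59 and 2.95 on the old arrays. The arrays with a high early value (young 3 and 4, old 4 and 5) were those with the lowest late values. With each probe centred on its own mean, late minus early ran from -1.03 to 0.79 in young and from -1.04 to 1.12 in old CMPs, so this variation did not follow age.

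The same measure was taken over 1453 transcripts with probes more than 1000 bases apart, all well above background on every array. The median of late minus early, centred per transcript, ran from -0.11 to 0.09 on the young and from -0.18 to 0.21 on the old arrays. Old array 2 had the highest and old array 4 the lowest value of the 8, and for Stk4 these were also the highest and the lowest array. Young array 5 was high for Stk4 at 0.79 and below 0 for this median, at -0.11. The part of this array difference in the values of Stk4 was not tested.

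Genes around the core were counted by their brightest tested probe. Among all 23155 genes tested, 0.207% were called at that probe (0.25% at any probe), 6.62% had an unadjusted p under 0.05 there, the median difference was -0.01 and 47.6% were higher in old CMPs. The middle 90% of all genes, from the 5th to the 95th percentile, lay between -0.59 and 0.49. None of the pathway genes outside the core was called at any probe.

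The upstream regulators, such as adaptors, angiomotins and other kinases that feed into LATS, had 38 genes, of which 35 were tested. There were 17 higher and 18 lower, the median difference was -0.02, none was called by limma and 4 had an unadjusted p under 0.05, beside 6.62% of all genes. The largest difference was that of Ajuba (Jub on the array), an adaptor that binds and holds back LATS, at 1.12 (SE 0.44, adjusted p = 0.648). Its young arrays ran from -4.11 to -1.96 and its old ones from -2.04 to -1.26, so the ages overlapped. Tnik, a kinase of the family that can act in parallel with STK3 and STK4, lay from -1.14 to -0.86 in young and from -0.53 to -0.24 in old CMPs. It did not overlap between the ages and differed by 0.56 (SE 0.17, adjusted p = 0.364). Of the 35 tested, 1 lay wholly higher (Tnik) and 1 wholly lower in old CMPs, together 5.71%, beside 4.86% of all genes. The lower one was Amot at -0.50 (adjusted p = 0.634), named here after its values were seen. Amotl1, an angiomotin that binds YAP and TAZ, differed by -0.73 (SE 0.90, adjusted p = 0.998), with young array 3 far above the others at -0.60. Without that array the difference was 0.23, so its direction rests on 1 array. Taok1, a kinase upstream of STK3 and STK4, differed by -0.57 (SE 0.39, adjusted p = 0.998), and by -0.21 without old array 2, which was the lowest at 1.73. For Ajuba the difference was 0.71 without young array 6. These values without 1 array were computed after the data were seen.

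The genes for cytoplasmic retention, degradation and competition for TEAD (14-3-3 proteins, casein kinases, Vgll genes and related factors) had 14 members, of which 11 were tested. There were 9 higher and 2 lower, with a median difference of 0.23, and none was called or had an unadjusted p under 0.05. The ages did not overlap for 2 of the 11, Csnk1d and the 14-3-3 gene Ywhaq, or 18.2%, beside 4.86% of all genes. Both were higher in old CMPs. The largest differences were 0.43 for Vgll4, which competes with YAP and TAZ for TEAD, 0.36 for Ywhab, 0.30 for Ywhah, both 14-3-3 genes, and 0.28 for Csnk1d, a casein kinase. The adjusted p was between 0.938 and 0.998 for these 4 genes. Vgll4 was at 0.16 without young array 4, and Ywhab between 0.15 without young array 3 and 0.67 without old array 4, so their order rests on single arrays. With the arrays shifted to their median in place of the 75th percentile, the median of all tested probes moved from -0.02 to 0.10. The median of this list moved with it, from 0.23 to 0.34, and lay between 0.18 and 0.34 over the alternatives run. Differences this small must be read against that shift.

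The known target genes of YAP and TAZ had 22 members, of which 16 were tested, 8 higher and 8 lower, with a median difference of -0.01. None was called by limma, and 3 had an unadjusted p under 0.05, beside 6.62% of all genes. Lats2, a core gene described above, is also on this list. It is 1 of the 8 lower genes and 1 of the 3 with an unadjusted p under 0.05. Amotl2 and Ptpn14 are counted both here and among the upstream regulators, so the lists are not independent. Of the most widely used target genes, Cyr61 (Ccn1) differed by -0.10 (SE 0.19, adjusted p = 0.998), Ctgf (Ccn2) was well above background on 2 young and no old arrays, and Ankrd1 on no array. These 3 genes were chosen for mention after their values were seen.

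The target gene with the largest fitted difference was Arhgef17. Its level was -4.80, -5.97, -6.39 and -6.39 on the young and -4.02, -4.30, -3.66 and -3.97 on the old arrays, and it was well above background on young array 3 and on all old arrays. The ages did not overlap. Of the 16 tested targets, 1 lay wholly higher (Arhgef17) and 1 wholly lower (Lats2) in old CMPs, together 12.5%, beside 4.86% of all genes. The difference of Arhgef17 was 1.90 (SE 0.35) and was not called, with an adjusted p of 0.094. Since 3 of the 4 young values lie in the background, this size depends on how background is handled. With those values raised to the dimmest signal well above background on their arrays, as for Wwtr1, the old CMPs held at least 1.82-fold more signal. The fitted difference was called with the arrays shifted to their median, at 2.02 (adjusted p = 0.0452). It was also called without young array 3, at 2.26 (adjusted p = 0.009), where no remaining young array was well above background, so that this call supports nothing further. Dock5, an exchange factor for Rac, differed by 0.61 (SE 0.26, adjusted p = 0.734), and Nt5e, which encodes the ecto-enzyme CD73, by 0.36 (SE 0.34, adjusted p = 0.998). Nt5e was at 0.10 without young array 3 and 0.67 without young array 4.

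**Figure D3:**
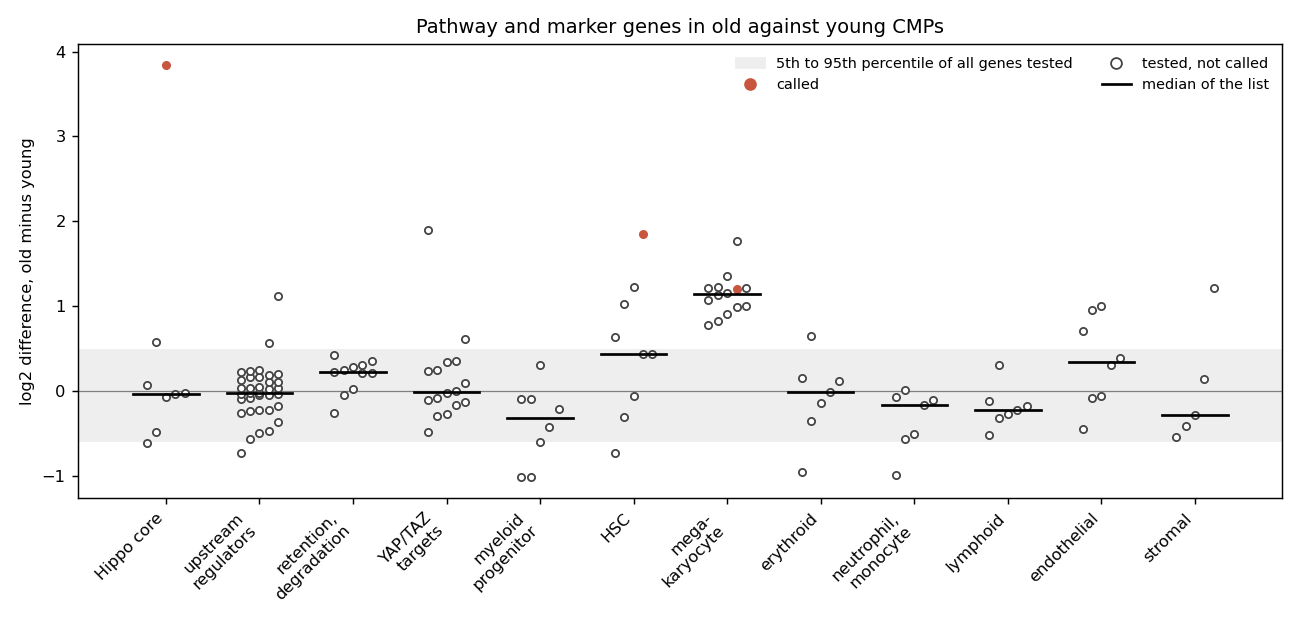
Each circle is 1 gene at its brightest tested probe, with the log2 difference, old minus young, on the vertical axis and the gene list on the horizontal axis. Filled circles were called, black bars are list medians and the grey band spans the 5th to the 95th percentile of all genes tested, from -0.59 to 0.49. The 14 megakaryocyte markers all lie above the band, whereas the medians of the upstream regulators and of the YAP/TAZ targets lie at -0.02 and -0.01.

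Markers of other cell types that the sorted samples could hold were read alongside. All 8 myeloid progenitor markers, with Mpo, Elane and Kit among them, were well above background on all arrays. So were 12 of the 14 megakaryocyte and 7 of the 8 erythroid markers, so this mark alone does not identify the cells as CMPs. Of the 8 myeloid progenitor markers 1 was higher and 7 were lower in old CMPs, with a median difference of -0.32. All 14 megakaryocyte markers were higher in old CMPs, with a median difference of 1.14, 12 of them without overlap between the ages (4.86% of all genes tested did not overlap), and Gp9 was called. Their summed level, as a multiple of each array's 75th percentile, ran from 99.2 to 197 in young and from 287 to 381 in old CMPs. For 10 HSC markers the sum ran from 16.3 to 24.1 in young and from 35.9 to 42.3 in old CMPs. Of the 9 tested, 6 were higher and 3 lower, and Hoxb5 was called at 1.85. The ages did not overlap for 3 of the higher and 1 of the lower, together 44.4%, beside 4.86% of all genes tested.

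Endothelial and stromal cells, in which TAZ is well known, were read through 10 markers each. Of 8 tested endothelial markers 5 were higher, with a median difference of 0.35. Tie1, Emcn and Robo4, 3 of the 8, did not overlap between the ages, beside 4.86% of all genes tested. The summed level of the 10 markers ran from 19.3 to 23.0 in young and from 18.8 to 25.1 in old CMPs. On all 8 arrays 5 of the 10 endothelial markers were well above background, while Cdh5 and Flt4 were so on 1 old array each and on no young array. Of 10 stromal markers 5 were tested, the sums overlapped at 14.2 to 18.5 and 11.8 to 21.1, and Pdgfra, Lum and Adipoq were well above background on no array. The sums of erythroid and lymphoid markers overlapped as well, though a sum is set mostly by its brightest probes. Of the tested erythroid markers 3 were higher and 4 lower, and of the lymphoid ones 1 was higher and 6 lower. The sums of myeloid progenitor markers ran from 922 to 1226 in young and from 706 to 826 in old CMPs. Those of neutrophil and monocyte markers ran from 75.3 to 104 and from 56.9 to 70.7. The part of these cell types in the values of Wwtr1, Tead2 and Arhgef17 was not tested.

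The genes whose tested probe varied most like Wwtr1 over the 8 arrays had the same pattern of no young and all old arrays well above background. They were a lincRNA on chromosome 19 (Pearson's r = 0.997), Bmpr1a, a receptor for bone morphogenetic proteins (0.988), H28 (0.985), Evc, a ciliary protein of Hedgehog signalling (0.985), and A230065H16Rik (0.984). These values are a description, since both ages enter them and the step between the ages sets most of each value. All 5 genes were called in the same comparison as Wwtr1, which is how such a pattern is found. The lower bound of the fold, old over young, was 4.90 for the lincRNA, 6.80 for Bmpr1a, 1.80 for H28, 6.999 for Evc and 4.29 for A230065H16Rik. Over the old arrays alone, the correlation with Wwtr1 ran from -0.28 for A230065H16Rik to 0.89 for the lincRNA, with 4 arrays each.

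**Figure D4:**
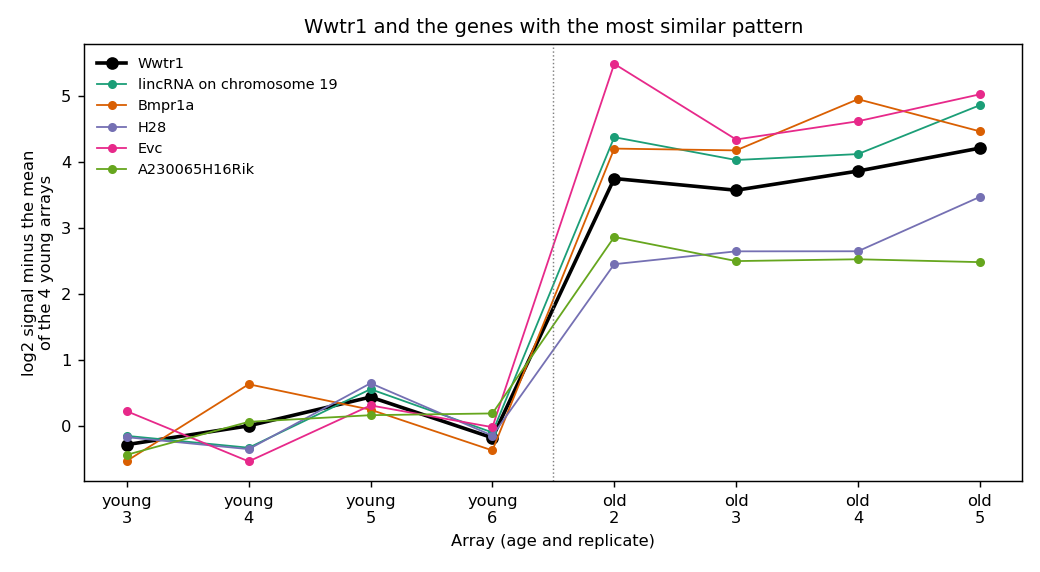
The vertical axis gives the log2 signal of each gene minus the mean of its own 4 young arrays, and the horizontal axis the 8 arrays, with the young on the left of the dotted line and the old on the right. Lines join the values of a gene and do not stand for an order of the arrays. Wwtr1 (black) and the 5 other genes share the step between the ages, and among the old arrays they differ in order.

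Of the other pathway and core genes, the probe most like Wwtr1 was that of Tnik (r = 0.88), followed by Ywhaq (0.87) and Arhgef17 (0.86). The Tead2 probe at base 1867 stood at 0.76, and Yap1 at -0.14. The step between the ages, with young Wwtr1 values in the background, sets these values too. Over the 4 old arrays alone the value was -0.67 for Tnik and 0.92 for that Tead2 probe, so the order depends on which arrays are read.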

How the data were processed

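The authors labelled total RNA of sorted CMPs with Cy3, hybridized 1 sample per array and used Feature Extraction 10.7.3.1 to read the slides. Per array, the deposited scanner file holds an intensity per spot that this software had corrected for background. The deposited series table holds log2 values, which matched the values computed here, and was an alternative only. Probe coordinates are those of mm9 in the files.

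Intensities of non-control spots were put on the log2 scale and shifted by the 75th percentile of their array, outlier spots were left out and spots of a probe were averaged. On 33472 probes the ages were compared with lmFit and eBayes of limma 3.58.1 under R 4.3.3. The step was tested on simulated data, in which most probes given the smallest change were missed and most given larger ones were recovered. A probe that was not called can therefore still differ between the ages. Precision is limited by the number of arrays and by signal over background.

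The members, gene lists, tests and alternatives were chosen with earlier results of these data known. Named were all members, every called list gene or the 4 tested genes of each pathway list with the largest difference, and the 5 genes most like Wwtr1. Replicate numbers were not taken to pair the arrays. Alternatives were other background corrections, normalizations, filters and tests, the slide or replicate number as a block, and leaving out each array.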

Additional observations from a re-analysis of the deposited data

Results flagged for a closer look

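The Tead3 probe on old array 4 stood apart from the other 3 old arrays. The gap to the nearest of them took up 0.959 of the range of the old group. This probe was well above background on no array. It was the only one of 32 groups (16 probes in 2 ages) that stood apart in this way, and chance gives about 1 in 20.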

How the results depend on the processing

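The counts of genes called over the whole array changed with the processing. Against 48 higher and 10 lower, they were 75 and 21 with normexp, 24 and 2 with no filter on dim probes and 27 and 2 with a filter of 1 array. With Welch's t-test, which the study's methods name, they were 590 and 359, and 0 and 0 with the adjustment added here. There were 77 higher with an intensity trend and robust variances. Lower calls were 3 with quantile normalization, 5 with a shift to the median, 6 with the series table, 6 with a filter of all 8 arrays and 4 with the slide as a block. Leaving out 1 array gave 22 to 37 higher and 2 to 6 lower. The count of members called, 1, was Wwtr1, which was chosen on this comparison and passed the filter through the old arrays alone, so its calls are no sign of stability. The count was 0 with the adjusted t-test and with the filter of all 8 arrays, under which Wwtr1 was not testable. Its difference was 0.98 and its bound 1.73-fold with normexp, and without 1 array they ran from 3.73 to 3.99 and from 3.39 to 4.18. Among regulators and targets 1 gene, Arhgef17, was called with a shift to the median, with the unadjusted t-test and without young array 3, and leaving out 1 array gave 0 to 1.

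Small differences changed sign. Yap1 was at 0.065 with normexp, 0.091 with quantile normalization, 0.096 with a shift to the median and 0.0086 in the series table. Lats1 was at 0.038 with quantile normalization and 0.081 with the shift, Stk3 at 0.043 with the shift, and Stk4 at -0.014 (base 4798) with normexp. The series table joins several probes in 1 line for Tead1, Tead2, Lats2 and Stk4 and gives no value for their single probes. Without 1 array the ranges were -0.21 to 0.13 for Yap1, -0.34 to 0.27 for Lats1, -0.26 to 0.088 for Stk3, and -0.41 to 0.094 (base 429) and -0.050 to 0.24 (base 4798) for Stk4. The cause was not tested. Tead1, Tead2 and Lats2 kept their direction and stayed uncalled in all settings run, but their sizes moved. With normexp Tead1 was at -0.025 (base 9486) and -0.33 (base 1846), Tead2 at 0.69 (base 1867) and Lats2 at -0.035 (base 645). Without 1 array Lats2 at base 645 ran from -0.45 to -0.090 and Tead1 at base 1846 was at -0.056 without young array 5. Tead2 at base 2055 was at 0.33 without young array 4.

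The replicate numbers shared by both ages were 3, 4 and 5, and deviations of equal numbers correlated at -0.09, -0.14 and 0.15, so the numbers were not taken as pairs. With the replicate block the difference of Wwtr1 was 3.85 and 36 genes were higher and 5 lower, and no member changed its call.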
